A study of Homo sapiens with 8 samples.

Results

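The genes described here are 9 members of the YAP, TEAD and Hippo pathway: YAP1, WWTR1, TEAD1, CYR61, CTGF, ANKRD1, AMOTL2, AJUBA and LATS2. They were taken from the gene tables by Ensembl identifier through GENCODE 29, where CYR61 and CTGF are the older symbols of CCN1 and CCN2. All 9 were found among the 66206 rows of each table, and all 9 passed the expression filter in both. RNA was sequenced from A549 cells, an established human lung adenocarcinoma line, in 4 groups of 2 libraries, and every group had been transfected. In the LNA controls the oligonucleotide was a scramble LNA gapmer at 25 pmol, a locked-nucleic-acid antisense strand that recruits RNase H to a matching RNA. The LY6K-AS knockdowns received LNA gapmers targeting LY6K-AS, a long non-coding RNA, at the same 25 pmol. In the siRNA controls it was a scramble siRNA at 40 pmol, and in the YWHAG knockdowns siRNA to YWHAG (the gene of 14-3-3 gamma) at 40 pmol. Titles give LNA1 and LNA3 for the LY6K-AS libraries and si1 and si2 for the YWHAG libraries, and whether these are different oligonucleotides is not stated. Nor is it stated that the 2 libraries of a group are separate cultures. The p-values below therefore cover the spread among these libraries only, which may be technical.

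In GENCODE 29 (hg38) the 9 genes lie at chr11:102110461-102233423 (YAP1), chr3:149517235-149736714 (WWTR1), chr11:12674591-12944483 (TEAD1), chr1:85580761-85583962 (CYR61) and chr6:131948176-131951373 (CTGF). ANKRD1 is at chr10:90912096-90921276, AMOTL2 at chr3:134355874-134375479, AJUBA at chr14:22971174-22982642 and LATS2 at chr13:20973032-21061547.

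The Hippo pathway is a kinase cascade that restrains the transcriptional coactivators YAP (YAP1) and TAZ (WWTR1). Its last kinases, LATS1 and LATS2, phosphorylate YAP and TAZ, which are then bound by 14-3-3 proteins and held in the cytoplasm. Unphosphorylated YAP and TAZ enter the nucleus, bind TEAD transcription factors such as TEAD1 and switch on target genes, among them CYR61, CTGF and ANKRD1. AMOTL2 and LATS2 are themselves targets that act back as inhibitors of YAP and TAZ. AJUBA is a LIM-domain scaffold that binds LATS kinases and limits their activity. The relation of the pathway to 14-3-3 proteins is the question that the YWHAG knockdown bears on here, at the level of RNA only. The phosphorylation and location of YAP and TAZ were not measured.

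The TEAD recognition motif GGAATG was searched on both strands (as GGAATG or CATTCC) in the 250 bases before each RefSeq start (GRCh38.p14), because 3 of the 9 genes are textbook TEAD targets. Windows were at hand for 7 of the 9 genes, 10 windows in all, and 5 of the genes had a match in 1 window. Over all 35116 windows in the table, 11.9% held the motif. The CTGF window (chr6:131951373-131951622, minus strand) held 3 matches, beginning 169, 104 and 95 bases before the start, and 0.0826% of all windows held 3 or more. It is shown whole as the densest of the set, with the motif in capitals.
CTGF: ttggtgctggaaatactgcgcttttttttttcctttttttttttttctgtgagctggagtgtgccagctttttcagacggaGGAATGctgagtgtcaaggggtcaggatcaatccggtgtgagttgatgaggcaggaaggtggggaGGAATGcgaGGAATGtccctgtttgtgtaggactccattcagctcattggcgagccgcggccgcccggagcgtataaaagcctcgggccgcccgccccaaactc

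The other matches are shown as 30 bases around the motif, read 5′ to 3′ on the gene's strand. ANKRD1 held 2 matches, at chr10:90921290-90921319 and at chr10:90921198-90921227 (minus strand), and 0.940% of all windows held 2 or more. YAP1 held 1 at chr11:102110273-102110302 (plus strand). AMOTL2 held 1 on the opposite strand at chr3:134374499-134374528, and AJUBA held 1 at chr14:22976884-22976913 (both minus-strand genes). The downstream ANKRD1 match and those of AMOTL2 and AJUBA overlap GENCODE 29 exons of the same genes, and that of YAP1 overlaps an exon of AP001527.2. Neither WWTR1 window, nor that of LATS2, held these letters. A match is a description of the letters and not a measured binding site.
ANKRD1 upstream: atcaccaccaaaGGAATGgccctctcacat
ANKRD1 downstream: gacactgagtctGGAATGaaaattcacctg
YAP1: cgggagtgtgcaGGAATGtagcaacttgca
AMOTL2: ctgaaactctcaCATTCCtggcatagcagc
AJUBA: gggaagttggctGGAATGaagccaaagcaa

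The read totals that the RPKM values were scaled to were between 26179563 and 33968088 in the LNA table and between 33737727 and 34560192 in the siRNA table. YWHAG stood at 163 and 158 RPKM in the siRNA controls and at 13.5 and 4.91 in YWHAG knockdowns 1 and 2, so depletion was deeper in library 2. LNCOC1, the gene annotated antisense to LY6K and read here as LY6K-AS, had 51 reads over the LNA controls and 11 over the LY6K-AS knockdowns, a depth-scaled ratio of 0.244 (exact 95% interval 0.115 to 0.474, counting error only). The knockdown libraries differed from each other more than the controls did. Over all genes tested, log2 values of the 2 libraries of a group differed with an SD of 0.16 in the LNA controls and 0.40 in the LY6K-AS knockdowns. In the siRNA controls this SD was 0.19 and in the YWHAG knockdowns 0.43. Mitochondrially encoded genes took 4.12% of reads in LY6K-AS knockdown 2, 8.37% in knockdown 1, and 8.43% and 6.43% in the LNA controls. They took between 13.99 and 18.2% in the siRNA table. The part of this share in the values below was not tested. All 5 epithelial markers (KRT8, KRT18, KRT7, EPCAM, CDH1) were present, with a summed level between 848 and 1418 RPKM, while the 3 endothelial and the 2 smooth muscle markers summed to at most 0.0800 and 0.113 RPKM. The 4 immune markers summed to between 0.569 and 3.26 RPKM and the 5 fibroblast markers to between 1.02 and 9.61.

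In the controls the 9 genes were expressed at moderate levels, on the scale of RPKM per kilobase of merged exon. The LNA control means ran in the order AJUBA (31.9), TEAD1 (28.6), CYR61 (25.2), AMOTL2 (24.3), WWTR1 (16.4), YAP1 (14.1), CTGF (11.5), LATS2 (5.46) and ANKRD1 (4.62). Among neighbours in that order, the 2 control libraries overlapped for CYR61 and AMOTL2 only. The siRNA control means had another order: TEAD1 (21.6), CYR61 (13.3), WWTR1 (12.04), AMOTL2 (6.84), YAP1 (6.83), LATS2 (5.49), CTGF (4.94), AJUBA (4.70) and ANKRD1 (4.18). There AMOTL2 and YAP1 were the only overlapping neighbours. The tables were normalized separately, and the transfected oligonucleotide and the table cannot be told apart, so levels across them are set side by side only. The LNA order and the ratios below also assume that LNA reads were counted over exons, which is not stated. AJUBA was 6.80 times and AMOTL2 3.55 times as high in the LNA controls, with CTGF at 2.34 and YAP1 at 2.07 times. At least 2-fold higher values in the LNA controls were also seen for 19.5% of the 12861 genes tested in both tables, whose median ratio was 1.13, and at least 2-fold lower values for 6.99% of them and 0 of the 9. LATS2 (0.994) and ANKRD1 (1.11) stood at nearly equal values in both tables.

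**Figure D1:**
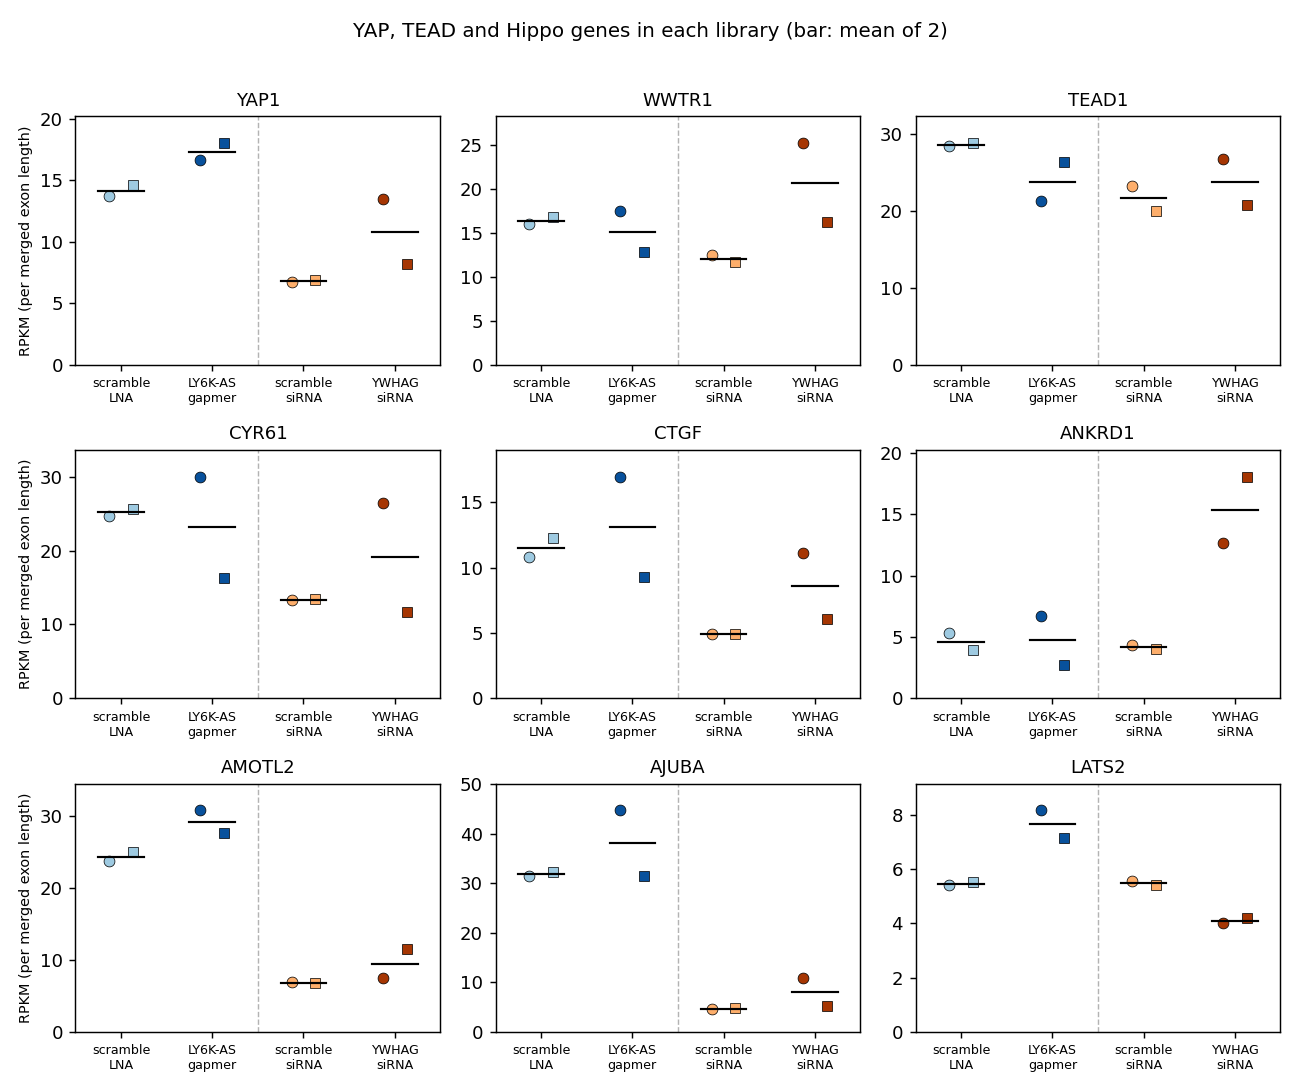
Level of each gene in RPKM per merged exon length (y axis, from 0) in the 8 libraries by group (x axis), with circles for the first and squares for the second library of a group and bars for the mean of 2. ANKRD1 stands at 12.6 and 18.1 RPKM after YWHAG siRNA against 4.34 and 4.02 in its controls, and AJUBA differs 6.80 times between the control groups of the separately normalized tables, left and right of the dashed line.

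After YWHAG knockdown, most of the 9 genes stood above both siRNA controls, with ANKRD1 far above the rest, and LATS2 stood below. None passed the test over all genes. A group of 6 (YAP1, WWTR1, CTGF, ANKRD1, AMOTL2 and AJUBA) was higher in both knockdown libraries than in both controls, 6 of 9 against 20.4% of all 13903 genes tested. LATS2 was the 1 gene below both controls, against 30.8% of all genes. CYR61 and TEAD1 overlapped with their controls. Groups that did not overlap in either direction made up 51.2% of all genes. limma called 0 of the 9, and 0% of all genes, at an adjusted p under 0.05. At an unadjusted p under 0.05 stood 3 of the 9 (WWTR1 and ANKRD1 higher, LATS2 lower) against 16.4% of all genes (7.51% higher and 8.9% lower), and limma voom on recovered reads also gave 0 and 3. That count of 3 moved in either direction with 1 library left out. The share of all genes under 0.05 in those fits was not counted, so no count of the 9 is drawn from them. The median log2 change of the 9 was 0.56, beside −0.05 over all genes tested. In bulk RNA, a change in every cell and a change in the share of expressing cells cannot be told apart.

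The coactivators themselves were higher in both YWHAG knockdown libraries. YAP1 had 6.75 and 6.90 RPKM in the controls, against 13.5 and 8.14 in knockdowns 1 and 2. Its log2 change was 0.56 ± 0.24 (SE, 95% interval −0.07 to 1.18, limma adjusted p = 0.338). WWTR1, the gene of TAZ, stood at 12.4 and 11.6 RPKM in the controls, then 25.2 and 16.2. Its log2 change was 0.71 ± 0.23 (0.11 to 1.30, limma adjusted p = 0.270). For both genes knockdown library 1 was farther from library 2 than library 2 was from the control mean. TEAD1, the DNA-binding partner, was at 23.1 and 20.01 RPKM with scramble siRNA and at 26.7 and 20.7 with YWHAG siRNA, so the groups overlapped (log2 change 0.12 ± 0.18, limma adjusted p = 0.763).

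CYR61 and CTGF, the best-known YAP target genes, encode secreted matricellular proteins. Their RNA was high in YWHAG knockdown 1 and much closer to the controls in knockdown 2. CYR61 had 13.3 and 13.4 RPKM in the controls, 26.4 in knockdown 1 and 11.7 in knockdown 2, which is below both controls. CTGF had 4.94 RPKM in each control, 11.1 in knockdown 1 and 6.08 in knockdown 2. The log2 changes were 0.38 ± 0.37 for CYR61 (95% interval −0.57 to 1.34) and 0.64 ± 0.28 for CTGF (−0.06 to 1.35), with limma adjusted p of 0.636 and 0.331. Knockdown 1 alone gave 0.94 and 1.03, and knockdown 2 alone −0.17 and 0.25, so the direction of CYR61 rested on library 1.

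ANKRD1 encodes an ankyrin-repeat protein of the nucleus and of muscle sarcomeres and is a target of YAP in many cell types. It had 4.34 and 4.02 RPKM in the siRNA controls and 12.6 and 18.1 in YWHAG knockdowns 1 and 2, from 296 and 274 reads to 865 and 1207. Both knockdown libraries lay well above both controls, and their mean was 3.68 times the control mean. The log2 change was 1.64 ± 0.20 (95% interval 1.13 to 2.15), with an unadjusted p of 0.000427 and a limma adjusted p of 0.130. With the spread pooled over all 8 libraries the limma adjusted p was 0.0644. Over the alternatives it ran from 0.0594 to 0.999, and the log2 change from 1.40 to 1.88. Unlike CYR61 and CTGF, ANKRD1 was higher in library 2 than in library 1. Less YWHAG RNA remained in library 2, and a relation to the depth of depletion was not tested.

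Among the regulators, AMOTL2, an angiomotin-family junction protein that binds YAP and TAZ, had 6.94 and 6.74 RPKM in the siRNA controls and 7.43 and 11.5 after YWHAG knockdown (log2 change 0.39 ± 0.22, limma adjusted p = 0.428). AJUBA stood at 4.68 and 4.71 RPKM, then 10.9 and 5.18 (0.59 ± 0.32, limma adjusted p = 0.419). Both genes were thus above their controls in both libraries, AMOTL2 mainly in library 2 and AJUBA mainly in library 1. LATS2, the kinase that opposes YAP, was at 5.57 and 5.42 RPKM with scramble siRNA, then 3.99 and 4.19. The 2 knockdown libraries were close to each other, and the log2 change was −0.35 ± 0.12 (95% interval −0.67 to −0.03, unadjusted p = 0.0368, limma adjusted p = 0.288). Taken singly, YWHAG knockdowns 1 and 2 had medians over the 9 genes of 0.94 and 0.22, with 8 and 6 of the 9 above the control mean. Over all genes 45.2% and 42.5% lay above it. Of the 9, 6 (YAP1, WWTR1, TEAD1, CYR61, CTGF and AJUBA) were lower in library 2 than in library 1, and 3 (ANKRD1, AMOTL2 and LATS2) were higher.

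**Figure D2:**
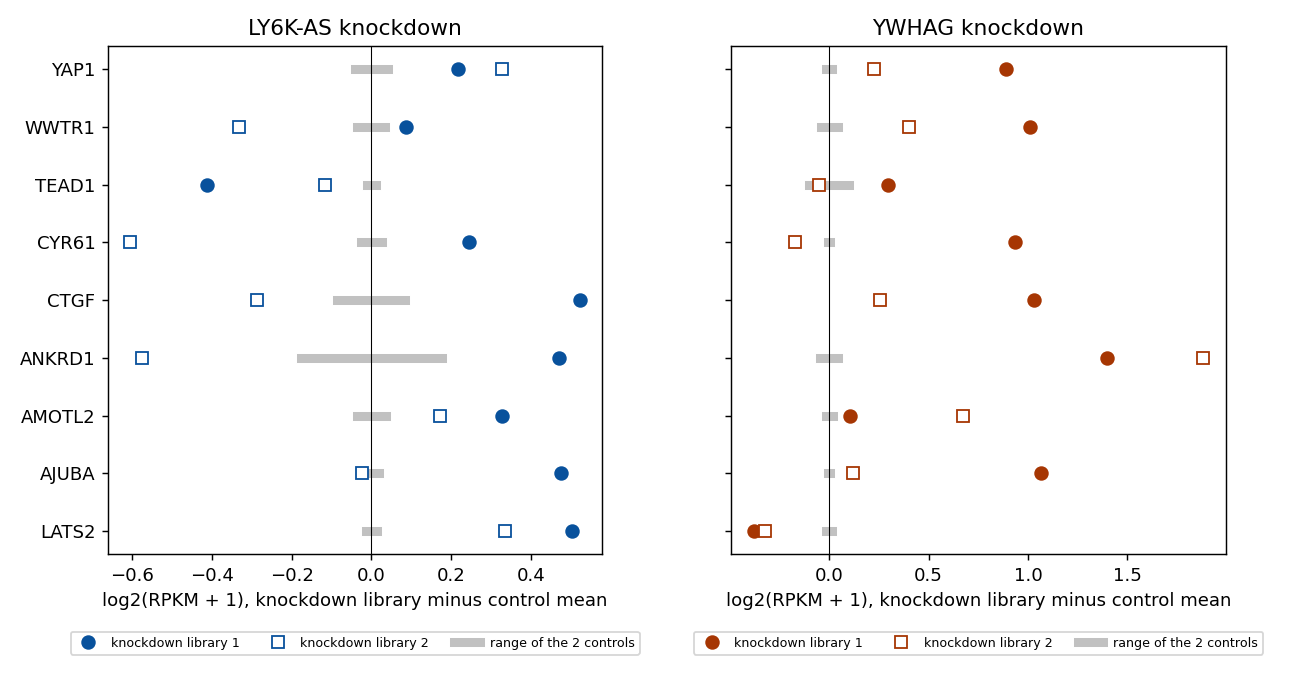
Difference of each knockdown library from its control mean in log2(RPKM + 1) (x axis, scaled separately per panel) for the 9 genes (y axis), with filled circles for library 1, open squares for library 2 and grey bars for the range of the 2 controls. After YWHAG knockdown CYR61 stands at 0.94 and −0.17. After LY6K-AS knockdown CYR61, CTGF, ANKRD1, WWTR1 and, only just, AJUBA lie on opposite sides of 0 in the 2 libraries.

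After LY6K-AS knockdown the 9 genes had no common direction. For CYR61, CTGF, ANKRD1, WWTR1 and, only just, AJUBA the 2 knockdown libraries stood on either side of the controls. LATS2, YAP1 and AMOTL2 were above both LNA controls in both libraries, and TEAD1 was below. Those 3 genes above compare with 31.4% of all 14662 genes tested, and the 1 below with 30.5%. In either direction 62% of all genes did not overlap, against 4 of the 9. limma called 0 of the 9, and 0% of all genes, at an adjusted p under 0.05. At an unadjusted p under 0.05 stood 2 of the 9 (YAP1 and LATS2, both higher) against 25.3% of all genes (13.6% higher and 11.7% lower), and limma voom also gave 0 and 2. That count of 2 was 0 on the values as deposited and 1 with the replicate block or with pooled spread. It also moved in either direction with 1 library left out. The share of all genes under 0.05 in those fits was not counted, so no count of the 9 is drawn from them. The median log2 change of the 9 was 0.12, beside 0.00 over all genes.

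LATS2 had 5.40 and 5.52 RPKM in the LNA controls and 8.17 and 7.15 in LY6K-AS knockdowns 1 and 2. This was the largest log2 change of the 9 after LY6K-AS knockdown, 0.42 ± 0.10 (95% interval 0.14 to 0.70, unadjusted p = 0.0133, limma adjusted p = 0.128). YAP1 was at 13.7 and 14.6 RPKM with the scramble gapmer, then 16.6 and 18.0 (0.27 ± 0.09, unadjusted p = 0.0393, limma adjusted p = 0.179), and its log2 change was 0.13 on the values as deposited. AMOTL2 was at 23.7 and 24.9 RPKM, then 30.8 and 27.5 (0.25 ± 0.10, limma adjusted p = 0.215). The LATS2 and AMOTL2 groups did not overlap, with library 1 the higher of the pair. TEAD1 was at 28.3 and 28.8 RPKM, then 21.2 and 26.3 (−0.26 ± 0.13, limma adjusted p = 0.279).

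The other 5 genes overlapped with their LNA controls. CYR61 had 24.7 and 25.7 RPKM in the controls, 30.01 in LY6K-AS knockdown 1 and 16.2 in knockdown 2. CTGF had 10.8 and 12.3 in the controls, 17.0 in knockdown 1 and 9.26 in knockdown 2. ANKRD1 had 5.31 and 3.94 in the controls, 6.74 in knockdown 1 and 2.75 in knockdown 2. Each of these 3 YAP targets was above both controls in library 1 and below both in library 2. WWTR1 followed the same pattern with 16.0 and 16.8 in the controls and 17.5 and 12.8 after knockdown, as did AJUBA with 31.5 and 32.4, then 44.8 and 31.4, the last only just below the lower control. Their log2 changes lay between −0.18 (CYR61) and 0.23 (AJUBA), with limma adjusted p between 0.484 and 0.944. The 95% interval of CYR61 ran from −0.99 to 0.63 and that of ANKRD1 from −1.09 to 0.99.

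Leaving out 1 LY6K-AS library decided which of these genes were called. Without knockdown 1, where the remaining library is given the controls' spread, 4 of the 9 passed (YAP1 and LATS2 higher, WWTR1 and CYR61 lower). Without knockdown 2, 6 passed (CYR61, CTGF, AMOTL2, AJUBA and LATS2 higher, TEAD1 lower). CYR61 was thus called at −0.60 (limma adjusted p = 0.00354) and at 0.24 (limma adjusted p = 0.0393), and LATS2 at 0.33 (limma adjusted p = 0.0105) and 0.50 (limma adjusted p = 0.0136). These fits called 7725 and 4350 genes over the whole table, so calls were common in them. Across genes the log2 change was higher at higher GC content of the transcript after LY6K-AS knockdown (Spearman rho 0.53 over 14662 genes, which share libraries and depth) and hardly after YWHAG knockdown (0.03). The 9 transcripts ran from 40.9% GC (WWTR1) to 56.7% (AMOTL2). With the GC trend removed the LY6K-AS log2 change was 0.42 for YAP1, 0.11 for AMOTL2, −0.09 for TEAD1, 0.06 for WWTR1, 0.10 for ANKRD1 and 0.41 for LATS2, so WWTR1 and ANKRD1 turned direction.

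The 2 knockdowns were then compared with each other by testing the difference of their effects over all 8 libraries. No gene of the 9 passed, with 0.179% of the 12861 genes called (0.0467% higher and 0.132% lower). At an unadjusted p under 0.05 stood 3 of the 9 (LATS2, ANKRD1 and WWTR1) against 20.4% of all genes (11.5% higher and 8.86% lower). The LY6K-AS effect minus the YWHAG effect was 0.77 ± 0.16 for LATS2 (95% interval 0.40 to 1.15, unadjusted p = 0.00169, limma adjusted p = 0.0859). LATS2 was the 1 gene of the 9 that stood beyond its controls in both knockdowns and in opposite directions, above them with the gapmers and below them with the siRNAs. The pattern was not particular to LATS2. Among genes named outside the 9, VGLL3, VGLL4, SFN, AMOTL1, WTIP and MAP4K2 stood the same way and WWC2 and MPP5 the other way. Groups did not overlap in either direction for 62% of all genes after LY6K-AS knockdown and 51.2% after YWHAG knockdown. The share of all genes beyond their controls in opposite directions was not counted, so whether 1 of the 9 is many or few is not known. For ANKRD1 the difference was −1.69 ± 0.47 (−2.80 to −0.59, limma adjusted p = 0.124) and for WWTR1 −0.83 ± 0.31 (−1.56 to −0.10, limma adjusted p = 0.205). For the other 6 genes it lay between −0.56 and −0.14, with intervals that included 0. Without LY6K-AS knockdown 1, LATS2 (0.69, limma adjusted p = 0.0420) and ANKRD1 (−2.21, limma adjusted p = 0.0270) passed. Without YWHAG knockdown 2, LATS2 (0.80, limma adjusted p = 0.0449) and WWTR1 (−1.13, limma adjusted p = 0.0497) passed. These 2 fits called 1185 and 735 of all genes, against 23 with every library.

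**Figure D3:**
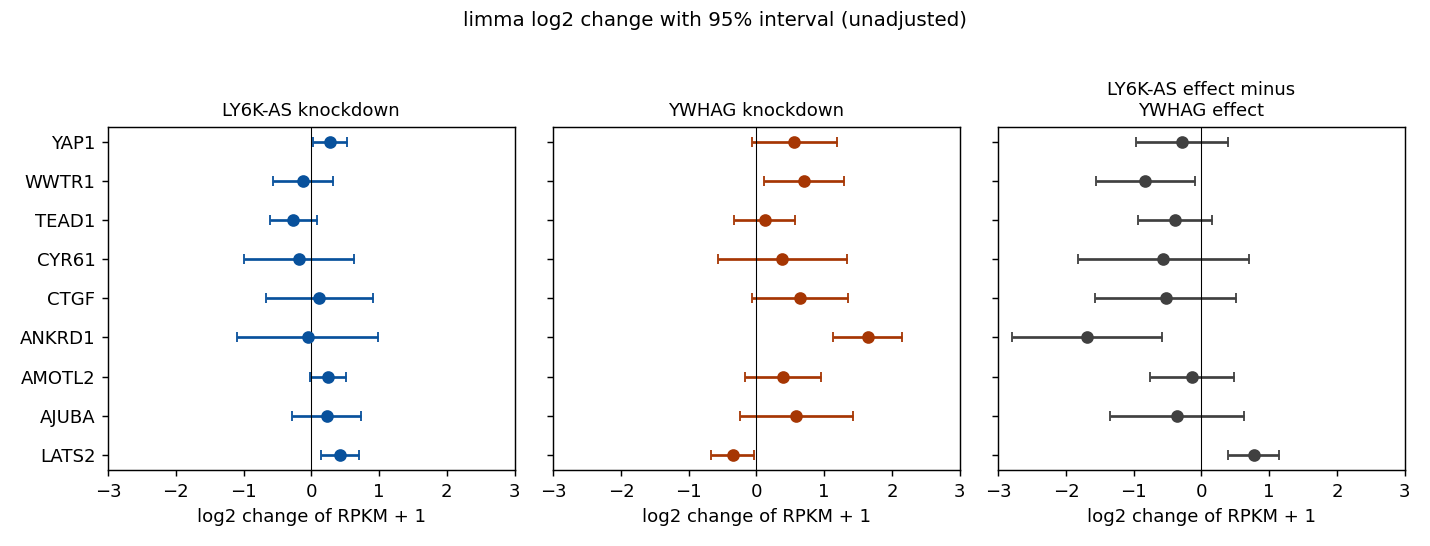
limma log2 change of RPKM + 1 (x axis) with its unadjusted 95% interval (bars) for the 9 genes (y axis) after LY6K-AS knockdown, after YWHAG knockdown and for the difference of the effects. ANKRD1 stands at 1.64 after YWHAG knockdown, and the LATS2 interval is above 0 on the left (0.14 to 0.70) and below 0 in the middle (−0.67 to −0.03).

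TEAD factors and their cofactors were described from a list of 10 genes. Of these, 8 were tested in each table and 0 were called in either. The list includes YAP1, WWTR1 and TEAD1, so it is not independent of the genes described above. Vestigial-like proteins VGLL3 and VGLL4 bind TEADs in competition with YAP. VGLL4 had 4.99 and 4.72 RPKM in the siRNA controls and 2.57 and 3.17 after YWHAG knockdown (log2 change −0.60 ± 0.14, limma adjusted p = 0.223). VGLL3 had 5.78 and 5.73 in the controls and 3.46 and 2.93 after knockdown (−0.69 ± 0.14, limma adjusted p = 0.194). After LY6K-AS knockdown the same genes stood above their controls, VGLL4 at 3.26 and 3.49 and then 4.39 and 5.04, and VGLL3 at 7.78 and 8.44 and then 10.2 and 9.72. TEAD3 was at 4.72 and 5.13, then 6.23 and 7.85, after LY6K-AS knockdown. TEAD4 in the siRNA table was at 13.9 and 13.6 in the controls and 8.15 and 16.7 after YWHAG knockdown, so the groups overlapped.

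Of 23 genes of the Hippo kinase cassette and the kinases above it, 23 were tested in the LNA table and 22 in the siRNA table, and 0 were called in either. The medians were −0.02 after LY6K-AS knockdown and −0.09 after YWHAG knockdown, beside 0.00 and −0.05 over all genes. After LY6K-AS knockdown 7 of the 23 stood above both controls and 6 below, beside 31.4% and 30.5% of all genes. For the 22 tested after YWHAG knockdown it was 6 and 8, beside 20.4% and 30.8%. LATS2 is in this list, so the list is not independent of the genes described above. Apart from LATS2, the genes named next are those with the smallest p. LATS1, the second LATS kinase, had 4.76 and 4.26 RPKM in the siRNA controls and 3.19 and 3.27 after YWHAG knockdown (−0.38 ± 0.13, limma adjusted p = 0.275), below both controls as LATS2 was. STK3, which encodes the MST2 kinase upstream of LATS, was at 2.68 and 2.53, then 1.88 and 1.96. In the LNA table STK3, named there after its values were seen, was at 1.62 and 1.501 RPKM in the controls, 1.45 in LY6K-AS knockdown 1 and 0.193 in knockdown 2. WWC2, a KIBRA-family activator of the LATS kinases, was the other way, at 3.12 ± 0.493 and 5.27 ± 0.169 RPKM (mean ± SD, n = 2) in control and YWHAG knockdown. After LY6K-AS knockdown WWC2 was at 5.44 ± 0.0870 and 4.33 ± 0.0779, and the kinases MAP4K2 (3.94 ± 0.0713 and 5.38 ± 0.222) and TAOK3 (2.84 ± 0.0877 and 3.81 ± 0.0698) stood above their controls.

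Of 25 junctional, polarity and STRIPAK phosphatase-complex regulators, 22 and 23 were tested after LY6K-AS and YWHAG knockdown, with medians of 0.01 and 0.09 and 0 called in either. The list includes AMOTL2 and AJUBA, so it is not independent of the genes described above. The polarity scaffold MPP5 (PALS1) had 3.53 ± 0.130 RPKM in the siRNA controls and 7.27 ± 1.70 after YWHAG knockdown (0.85 ± 0.18 SE, limma adjusted p = 0.206). WTIP, a LIM protein of the AJUBA family, had 3.77 ± 0.331 and 6.64 ± 0.704 RPKM in LNA controls and LY6K-AS knockdowns, and the angiomotin AMOTL1 had 7.44 ± 0.259 and 10.3 ± 0.737. PPP2CA, the catalytic subunit of the phosphatase in STRIPAK, was at 27.7 ± 0.295 and 20.3 ± 2.69.

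A list of 22 widely used YAP and TAZ target genes includes CYR61, CTGF, ANKRD1, AMOTL2 and LATS2, so it is not independent of the 9. Of its 21 tested genes 0 were called in either comparison, with medians of 0.20 after YWHAG knockdown and 0.06 after LY6K-AS knockdown. After YWHAG knockdown 6 stood above both controls and 6 below both, beside 20.4% and 30.8% of all genes. In YWHAG knockdown 1, 15 of the 21 were above the control mean (median 0.32), and in knockdown 2, 7 were (median −0.13), beside 45.2% and 42.5% of all genes. In LY6K-AS knockdowns 1 and 2 it was 14 (median 0.24) and 10 (median −0.14), beside 49.7% and 51.7% of all genes. The growth factor carrier IGFBP3 had 97.5 and 119 RPKM in the siRNA controls, 516 in YWHAG knockdown 1 and 104 in knockdown 2. The receptor tyrosine kinase AXL had 31.6 and 32.1, then 105 and 37.6, and the ectonucleotidase NT5E 8.47 and 8.15, then 19.9 and 7.98. These 3 genes were named after their values were seen. By the fixed rule, CRIM1 stood at 25.5 ± 2.14 and 36.1 ± 5.15 RPKM in control and YWHAG knockdown and the growth factor TGFB2 at 7.88 ± 0.117 and 4.95 ± 1.65. GADD45A, a stress gene that p53 also controls, was at 15.3 ± 0.672 and 41.4 ± 10.3 after LY6K-AS knockdown and at 6.30 ± 0.0876 and 8.34 ± 0.903 after YWHAG knockdown. ARHGEF17 (7.14 ± 0.480 and 9.45 ± 0.436) and NT5E (12.3 ± 0.383 and 17.1 ± 2.75) stood above their LNA controls. Of the 21, 8 stood above both LNA controls and 3 below, beside 31.4% and 30.5% of all genes.

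**Figure D4:**
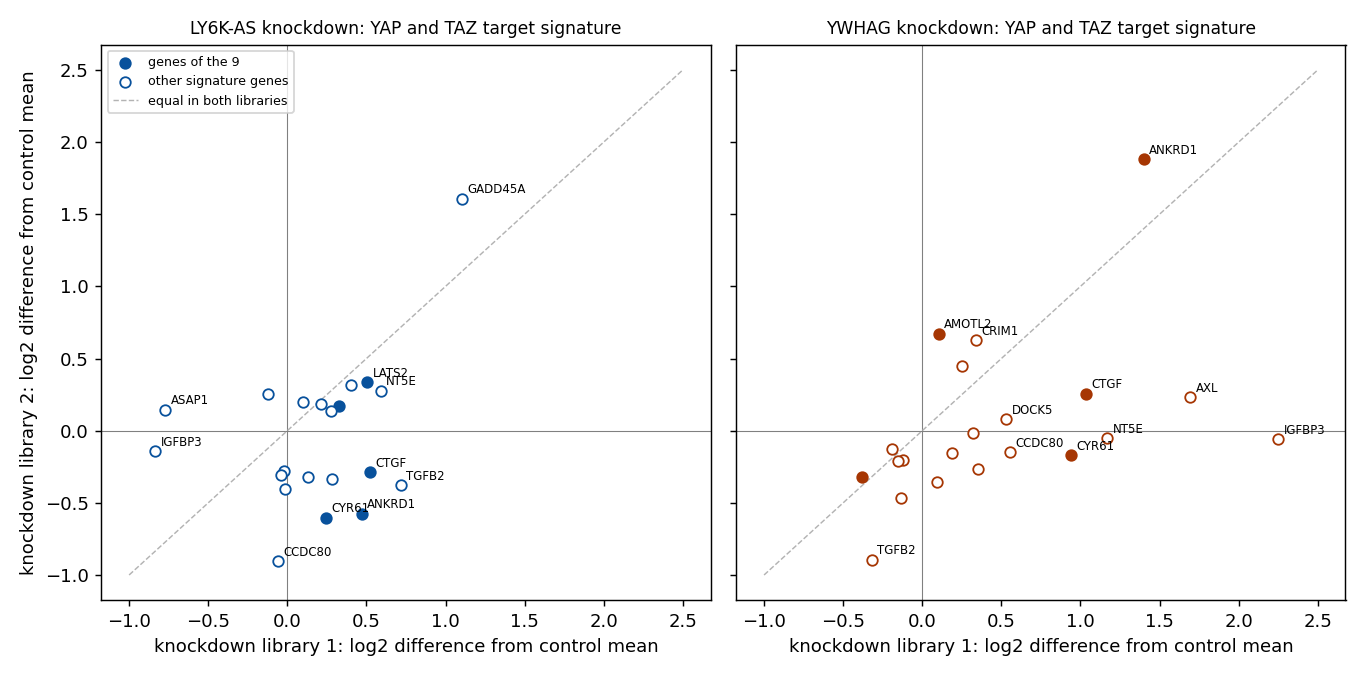
Log2 difference from the control mean in knockdown library 1 (x axis) and library 2 (y axis) for the 21 tested genes of the YAP and TAZ target signature, with filled points for genes of the 9 and a dashed line for equal values. After YWHAG knockdown 15 of 21 lie right of 0 and 7 above it, and ANKRD1 is the farthest in library 2 (1.88), while after LY6K-AS knockdown GADD45A stands apart.

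The genes whose profile over the 8 libraries was most like the mean of CYR61 and CTGF were sought among 8812 genes, after centring log2(RPKM + 1) within each table. This is a description over 8 libraries of 2 tables. The 5 closest outside the 9 genes were PRADC1 (Pearson r 0.99), the DNA repair factor XPA (0.98), the mitochondrial carrier SLC25A24 (0.98), PCMTD1 (0.97) and the prostaglandin dehydrogenase HPGD (0.97). PRADC1 had 5.09 and 5.51 RPKM in the siRNA controls and 12.3 and 5.54 after YWHAG knockdown. HPGD had 16.3 and 18.9, then 36.5 and 18.2. Of the other 7 genes of the pathway set, AJUBA (0.94) and WWTR1 (0.91) followed CYR61 and CTGF most closely, then YAP1 (0.68), ANKRD1 (0.54) and TEAD1 (0.24). AMOTL2 (−0.01) and LATS2 (−0.25) did not follow them.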

How the data were processed

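RNA-seq values for 8 A549 libraries were deposited by the authors as RPKM in 2 tables, 1 per knockdown and its controls. Per the submitters' processing notes, the tools were STAR, featureCounts, Subread and Picard with build hg38. Their versions, roles and strand use are not given in the sources used here. Columns of the siRNA controls are numbered 2 and 3 and the labels 1 and 2, so these were assigned to their group only. Identifiers were matched to GENCODE 29 (57055 of 66206). RPKM times gene length gave whole reads (tolerance 0.05) for 100% of low values with the genomic span for the LNA libraries and the merged exon length for the siRNA libraries. LNA values were therefore rescaled to merged exon length, and the 9151 unmatched rows left out of that table. The lengths of TEAD1 and CYR61 are from another identifier version, and TEAD1 reads came out up to 0.233 from whole. Reads of genes that overlap the 9 came to at most 1.16% of a member's reads.

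Each knockdown was tested against its own controls on log2(RPKM + 1) with limma's trend option (limma 3.58.1 in R 4.3.3), among genes with at least 0.5 RPKM in at least 2 of 4 libraries. Tests were two-sided with Benjamini-Hochberg adjustment at 0.05 over all genes. Fold changes on this scale understate those of low genes. Each fit had 2 residual degrees of freedom, and the fit of the difference over 8 libraries had 4. The procedure was run on simulated data, whose outcome is not given here and is not relied on. The genes and lists were chosen with earlier results of these data known. Named genes are the 9, the targeted genes, the 3 others of each list with the smallest p, and the 5 closest profiles among genes with a mean of at least 2 RPKM. Alternatives were other pseudocounts (0.1, 0.5), filters, scaling, the deposited values, voom, pooled spread, GC correction, a replicate block and each library left out.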

Additional observations from a re-analysis of the deposited data

How the results depend on the processing

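No gene of the 9 was called in either knockdown under any alternative except where 1 LY6K-AS knockdown library was left out. The count ran from 0 to 6 over the libraries left out after LY6K-AS knockdown and from 0 to 2 for the difference of effects. Over all genes, the count after LY6K-AS knockdown was 0 and became 64 with the spread pooled over 8 libraries, and ran from 0 to 7725 with 1 library left out. After YWHAG knockdown it was 0 and became 214 with pooled spread. For the difference it was 23, and became 5 with no filter, 72 with a filter of 2 RPKM and 43 on the values as deposited, and ran from 0 to 1185 with 1 library left out. The cause was not tested. Of 376 values of the 9 genes over alternatives, 350 kept direction and side of the threshold, 13 passed it in the same direction and 13 turned direction. Of those that turned, CYR61 without LY6K-AS knockdown 2 also passed the threshold. After LY6K-AS knockdown these were WWTR1 (0.056) and ANKRD1 (0.10) with the GC trend removed. The others turned with 1 library left out, over ranges of −0.33 to 0.088 (WWTR1), −0.60 to 0.24 (CYR61), −0.29 to 0.52 (CTGF), −0.57 to 0.47 (ANKRD1) and −0.023 to 0.48 (AJUBA). After YWHAG knockdown they ranged from −0.053 to 0.30 (TEAD1) and −0.17 to 0.94 (CYR61). For the difference they ranged from −0.62 to 0.050 (YAP1), −0.42 to 0.15 (AMOTL2) and −0.84 to 0.11 (AJUBA). Same-numbered LNA libraries shared only a number (correlation of their deviations 0.08), and with the replicate block 0 of the 9 and 0 of all genes were called after LY6K-AS knockdown. No paired analysis was possible for YWHAG because its control columns do not carry the labels' numbers. On the values as deposited LATS2 fell under the filter in the LNA table.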

Other observations

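Actin cytoskeleton genes and targets of the serum response factor SRF, which share targets such as CYR61 and ANKRD1 with YAP, were listed as 14 genes, of which 13 and 12 were tested and 0 were called. After LY6K-AS knockdown 10 of the 13 were lower (median −0.23), beside 7288 of all 14662 genes (median 0.00). Among the 10 was TAGLN, an actin-binding smooth muscle protein (6.13 ± 0.0662 and 3.54 ± 0.735 RPKM, mean ± SD, n = 2). The myosin light chain MYL9 (1.00 ± 0.0285 and 0.456 ± 0.0444) and the SRF coactivator MKL2 (4.22 ± 0.0479 and 3.03 ± 0.134) were others. After YWHAG knockdown 7 of the 12 were lower (median −0.05), beside 8008 of all 13903 genes (median −0.05), so the list stood much as all genes did. The focal adhesion protein VCL was at 36.9 ± 2.504 and 26.6 ± 2.45 RPKM there, MKL2 at 4.61 ± 0.528 and 3.11 ± 0.148, and the actin crosslinker FLNA at 114 ± 2.11 and 192 ± 92.8. The limma adjusted p of these 6 values lay between 0.111 and 0.405.

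The 14-3-3 family was listed as 7 genes, of which 7 were tested in each table and 0 were called. Its median was −0.32 after LY6K-AS knockdown and −0.39 after YWHAG knockdown, beside 0.00 and −0.05 over all genes. SFN, which encodes 14-3-3 sigma, had 89.9 ± 5.40 RPKM in the siRNA controls and 54.8 ± 5.83 after YWHAG knockdown (log2 change −0.71, limma adjusted p = 0.198), and YWHAQ had 259 ± 5.49 and 169 ± 56.0. After LY6K-AS knockdown SFN was the 1 gene of the 7 above both controls, at 162 ± 2.80 and 293 ± 2.09 RPKM, beside 31.4% of all genes. The other 6 were below both controls, beside 30.5% of all genes. Among those 6 were YWHAE (21.7 ± 0.569 and 15.1 ± 1.22), YWHAZ (43.3 ± 1.116 and 31.3 ± 3.08) and YWHAG (log2 change −0.31, limma adjusted p = 0.291). All 7 genes of the family, the siRNA target YWHAG included, had a log2 change below 0 after YWHAG knockdown, as did 8008 of all 13903 genes. None passed over all genes in the siRNA table, YWHAG included (−4.12, limma adjusted p = 0.130), which passed with the spread pooled over 8 libraries (limma adjusted p = 0.0109).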
